A study of Homo sapiens with 6 samples.

Results

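ATP5G1, ATP5G2 and ATP5G3 are the 3 nuclear genes that encode subunit c of mitochondrial ATP synthase, and current annotations name them ATP5MC1, ATP5MC2 and ATP5MC3. They were taken by gene name from a deposited table of FPKM (fragments mapped to a gene, scaled by its length and by the mapped fragments of the library), and are 3 of the 12154 protein-coding genes in it. The family was chosen by the FPKM of ATP5G2 in these same libraries, since it was among the few genes that differed between the groups. The contrast of the groups is therefore given for the 3 genes as a description, with no test.

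The study asked which genes respond to AS-tDR-007333, a tRNA-derived fragment from the 5′ end of tRNA-Gly-GCC that was raised in non-small cell lung cancer. RNA-seq compared NC cells, the negative control, with AS-tDR-007333-overexpressed cells, at 3 libraries each. The sample labels name the lung adenocarcinoma cell line A549, transfected by lipofection with a plasmid for the fragment or with the empty vector. The methods name PC9, also a lung adenocarcinoma line, and a transfection with AS-tDR-007333 or NC. Neither source states whether each library had a culture of its own, and p-values therefore cover the spread of these libraries alone, technical or not. The sequences of the fragment and of its control oligonucleotide, shown because the fragment is what the groups were set up to differ in, are written 5′ to 3′ as the study lists them. The control sequence belongs to the account in the methods, since the labels give an empty vector.
Fragment AS-tDR-007333: gcauuggugguucagugguagaauucuu
Control AS-tDR-007333-NC: gagaauuuugauggccguucuguaugug
Both are 28 nt long.

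The libraries were epithelial, with all 6 epithelial markers listed, among them KRT19 at 601 to 678 FPKM and EPCAM at 153 to 168 FPKM. CDKN2A and CDKN2B, which A549 is known to have lost, were listed at 9.84 to 17.5 and 14.3 to 16.9 FPKM, which goes against the label A549. Of 6 genes known to be high in A549, 5 were listed, among them AKR1B10 at 152 to 163 FPKM, and ALDH1A1 was not. Of 6 markers of other cell types, COL1A1 (5.09 to 6.10 FPKM) and NAPSA (0.345 to 0.563 FPKM) were listed. The listed FPKM summed to 197324 to 202921 per library, and the table held no read counts, so the depth behind each value is unknown. On the first principal component of all genes tested, NC replicate 1 lay at 18.01 and the other 5 libraries between -9.91 and 1.53.

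ATP synthase is the rotary enzyme of the inner mitochondrial membrane that makes ATP from ADP and phosphate while protons flow back into the matrix. Subunit c is a small, very hydrophobic hairpin protein, and several copies of it form the ring in the membrane that turns as protons pass. The 3 genes encode precursors with different targeting peptides in front of the same mature protein. The targeting peptides are removed after import into mitochondria, so the transcripts can be told apart while the mature proteins cannot.

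In the reference annotation (GENCODE release 44 on GRCh37) the precursors of ATP5G1, ATP5G2 and ATP5G3 had 136, 141 and 142 residues, each from 4 coding exons. All 3 ended in the same 77 residues, which hold the mature subunit c. The residues in front of this run numbered 59, 64 and 65. Those parts were basic, with 6, 6 and 7 lysines and arginines against 1, 3 and 3 acidic residues. The bases that encode the shared residues are given because reads from there are told apart by these bases alone. They are written 5′ to 3′ from the canonical transcripts, and capitals mark positions at which the 3 genes do not all have the same base.
ATP5G1: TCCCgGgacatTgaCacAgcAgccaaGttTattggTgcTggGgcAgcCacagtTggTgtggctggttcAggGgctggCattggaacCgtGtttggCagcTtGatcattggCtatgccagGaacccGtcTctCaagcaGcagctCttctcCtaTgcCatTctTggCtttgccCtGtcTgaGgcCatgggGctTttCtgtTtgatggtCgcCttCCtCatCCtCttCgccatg
ATP5G2: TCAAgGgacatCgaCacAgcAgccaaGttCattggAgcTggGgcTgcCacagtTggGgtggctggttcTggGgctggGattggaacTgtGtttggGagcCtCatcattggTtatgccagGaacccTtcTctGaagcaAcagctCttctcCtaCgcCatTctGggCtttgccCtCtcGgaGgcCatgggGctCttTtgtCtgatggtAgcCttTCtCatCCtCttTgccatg
ATP5G3: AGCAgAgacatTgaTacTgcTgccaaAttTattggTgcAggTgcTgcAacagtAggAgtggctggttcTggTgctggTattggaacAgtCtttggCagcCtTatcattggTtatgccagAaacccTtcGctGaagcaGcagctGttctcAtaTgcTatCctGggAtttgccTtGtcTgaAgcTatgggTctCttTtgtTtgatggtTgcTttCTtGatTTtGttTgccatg
Although the protein is the same, 57 of these 231 positions differed among the 3 genes. ATP5G1 and ATP5G2 differed at 27 positions, and each of them differed from ATP5G3 at 46. The longest stretch of identical bases between the canonical transcripts was 17 bases for ATP5G1 and ATP5G2, 11 bases for ATP5G1 and ATP5G3, and 17 bases for ATP5G2 and ATP5G3. A read matching a longer stretch of 1 of these transcripts exactly thus does not match the transcript of another member. Processed copies elsewhere in the genome are another matter, since RefSeq lists 8 pseudogenes named after ATP5G1, 5 after ATP5G2 and 0 after ATP5G3. Copies under other names were not searched for. How reads that match a gene and its pseudogenes were assigned was not stated.

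ATP5G2, also known as P2, was the member whose level differed between the groups. It was listed at 17.5, 14.8 and 16.2 FPKM in NC replicates 1, 2 and 3, and at 8.46, 8.46 and 8.64 FPKM in AS-tDR-007333 replicates 1, 2 and 3. Every AS-tDR-007333 library lay below every NC library, and the closest 2 libraries of different groups were still at 14.8 and 8.64 FPKM. NC cells had a mean of 16.2 ± 1.32 FPKM and AS-tDR-007333-overexpressed cells of 8.52 ± 0.103 FPKM (SD, n = 3 each), which was 47.3% lower. On the log2(FPKM + 1) scale, which understates changes of low values, the difference was -0.85. The spread between libraries also differed, with a coefficient of variation of 8.19% in NC cells and 1.21% in AS-tDR-007333-overexpressed cells.

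ATP5G1, also known as P1, was the member with the lowest level. Its FPKM was 5.09, 5.53 and 5.64 in NC replicates 1, 2 and 3, and 6.62, 6.95 and 5.24 in AS-tDR-007333 replicates 1, 2 and 3. The groups overlapped, because AS-tDR-007333 replicate 3 lay between NC replicates 1 and 2. The means were 5.42 ± 0.292 FPKM in NC cells and 6.27 ± 0.907 FPKM in AS-tDR-007333-overexpressed cells (SD, n = 3 each), a difference of 0.17 on the log2(FPKM + 1) scale.

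ATP5G3, or P3, had the highest level and the smallest difference. It was listed at 20.9, 20.1 and 21.4 FPKM in NC replicates 1, 2 and 3, and at 21.4, 20.6 and 21.5 FPKM in AS-tDR-007333 replicates 1, 2 and 3. The 6 libraries were intermixed, with means of 20.8 ± 0.658 and 21.2 ± 0.479 FPKM (SD, n = 3 each) and a log2 difference of 0.03.

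**Figure D1:**
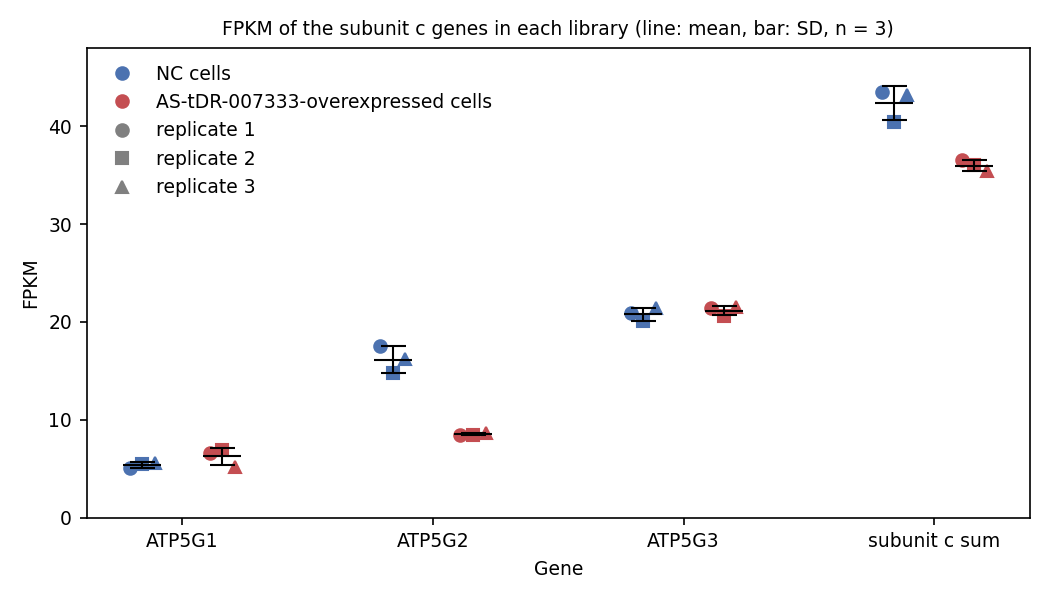
FPKM (y axis) of ATP5G1, ATP5G2, ATP5G3 and their sum in each library, with NC cells in blue and AS-tDR-007333-overexpressed cells in red; symbols mark the replicate, lines the mean and bars the SD (n = 3). ATP5G2 lay at 14.8 to 17.5 FPKM in NC cells and at 8.46 to 8.64 FPKM in AS-tDR-007333-overexpressed cells, while the values of ATP5G1 and of ATP5G3 overlapped between the groups.

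For comparison, limma called 7 of the 11042 genes tested (0.0634%) at an adjusted p under 0.05, 3 of them lower in AS-tDR-007333-overexpressed cells (0.0272%) and 4 higher (0.0362%). Of the 3 subunit c genes, ATP5G2 was 1 of those 3 lower genes, which is how the family was chosen. The number called changed with single libraries, to 1 without NC replicate 3, 14 without NC replicate 2, 18 without NC replicate 1 and 11 without AS-tDR-007333 replicate 2. ATP5G2 was not among the called genes without NC replicate 3, without any 1 of the 3 AS-tDR-007333 libraries, or in a fit blocked on replicate number, which called 1 gene. Values lay lower in every AS-tDR-007333 library than in every NC library for 5.18% of the genes tested and higher for 3.58%, together 8.76%. Nothing is read from these counts for the 3 genes, because the choice used the same contrast.

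The order of the 3 genes by level was the same in all 6 libraries, with ATP5G3 first, ATP5G2 second and ATP5G1 last. FPKM is scaled by gene length, but the annotation release behind the lengths was not stated. The order of the 3 genes, their sum and their shares rest on those lengths. Reads shared with pseudogenes could also enter the 3 levels, their sum and their shares unequally. Neither point was tested. In NC cells the ranges of genes next to each other in the order by level did not overlap (5.09 to 5.64, 14.8 to 17.5 and 20.1 to 21.4 FPKM). In AS-tDR-007333-overexpressed cells they did not overlap either, but the step from ATP5G1 (5.24 to 6.95 FPKM) to ATP5G2 (8.46 to 8.64 FPKM) was narrower. The ratio of ATP5G2 to ATP5G1 was 3.44, 2.68 and 2.87 in NC replicates 1, 2 and 3, and 1.28, 1.22 and 1.65 in AS-tDR-007333 replicates 1, 2 and 3. That of ATP5G2 to ATP5G3 was 0.778 ± 0.0518 and 0.402 ± 0.00728 (SD, n = 3 each). By mean FPKM over the 6 libraries, ATP5G3 (21.0 FPKM) lay above 85.6% of the genes in the table, ATP5G2 (12.3 FPKM) above 74.5% and ATP5G1 (5.85 FPKM) above 52.1%.

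Since the 3 genes give 1 mature protein, their FPKM was also summed in each library. The sum was 43.5, 40.4 and 43.2 FPKM in NC replicates 1, 2 and 3, and 36.5, 36.0 and 35.4 FPKM in AS-tDR-007333 replicates 1, 2 and 3. All 3 AS-tDR-007333 libraries lay below the 3 NC libraries, with means of 36.0 ± 0.559 and 42.4 ± 1.67 FPKM (SD, n = 3 each), so that the sum was 15.1% lower. In FPKM, the mean of ATP5G2 was lower by 7.65, while ATP5G1 and ATP5G3 together were higher by 1.26, and the sum was lower by 6.39. Without ATP5G2, the groups overlapped, at 25.6 to 27.0 FPKM in NC cells and 26.7 to 28.0 FPKM in AS-tDR-007333-overexpressed cells.

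The make-up of the subunit c transcripts differed accordingly. ATP5G2 held 40.2%, 36.7% and 37.5% of the sum in NC replicates 1, 2 and 3, and 23.2%, 23.5% and 24.4% in AS-tDR-007333 replicates 1, 2 and 3. The share was thus 14.4 percentage points lower on average. ATP5G3 made up 49.1 ± 0.856% in NC cells and 58.9 ± 1.77% in AS-tDR-007333-overexpressed cells (SD, n = 3 each), and ATP5G1 12.8 ± 1.01% and 17.4 ± 2.32%. The 3 shares add up to the whole, so a lower share of ATP5G2 forces a higher one on the others, and their FPKM overlapped between the groups as given above.

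The shares were set beside those of 1 other family, histone H3.3, the variant deposited outside replication, which is also encoded by several genes that give 1 protein. H3F3A held 51.6 ± 2.37% of the histone H3.3 FPKM in NC cells and 50.7 ± 1.52% in AS-tDR-007333-overexpressed cells (SD, n = 3 each), and H3F3B held the rest. The shares overlapped between the groups, and the shift of H3F3A (-0.910 points) was smaller than the SD of either group. In limma neither gene was called (adjusted p = 1 for each) and neither had an unadjusted p under 0.05.

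**Figure D2:**
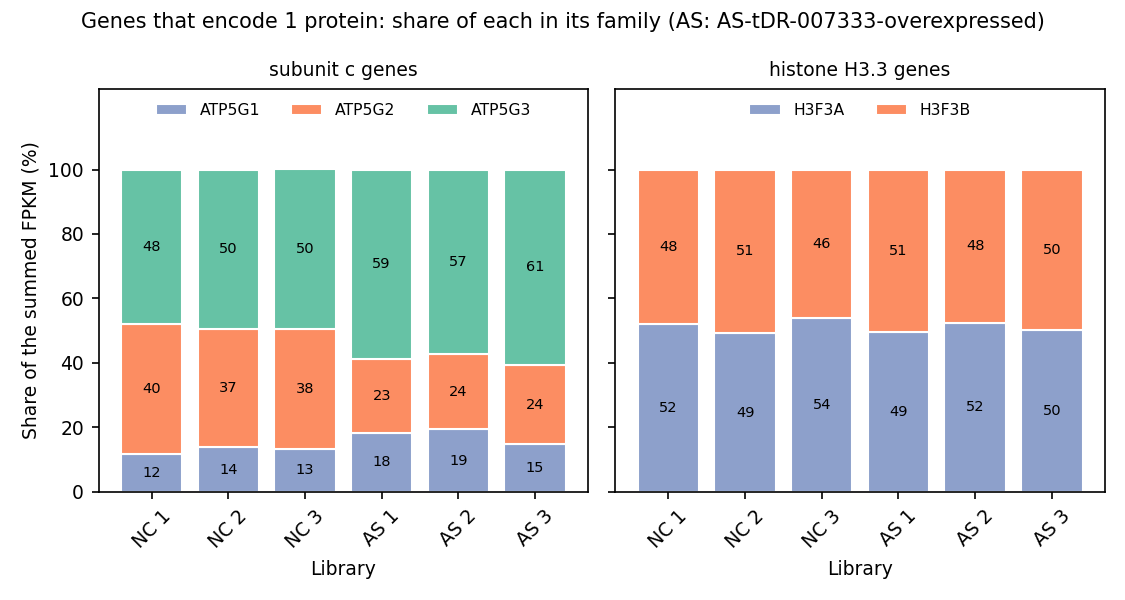
Share of each gene in the summed FPKM of its family (y axis, percent) in each of the 6 libraries, for the genes of subunit c and histone H3.3; AS stands for AS-tDR-007333-overexpressed. The share of ATP5G2 was 36.7 to 40.2% in NC cells and 23.2 to 24.4% in AS-tDR-007333-overexpressed cells, whereas the shares of the histone H3.3 genes overlapped between the groups.

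The other parts of the enzyme are the F1 head, which makes ATP, the peripheral stalk that holds it still, and the remaining membrane subunits of Fo. The 18 genes taken for these parts, with the inhibitor ATPIF1 and coupling factor B (ATP5S) counted among them, were all listed and tested. At an adjusted p under 0.05 limma called 0 of them, and 0 had an unadjusted p under 0.05. Of all genes tested, 0.0634% were called and 3.61% lay under the unadjusted threshold (1.63% higher and 1.98% lower). Counts of 0 are therefore unremarkable for 18 genes. The log2 differences of the 18 genes ranged from -0.05 to 0.20, with a median of 0.06, where the median over all genes tested was -0.01. The values of all 18 genes overlapped between the groups, as did those of most genes tested, since 8.76% of all genes tested did not overlap.

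In the F1 head, ATP5B, which encodes the catalytic beta subunit, had 99.5 ± 19.0 FPKM in NC cells and 98.0 ± 11.1 FPKM in AS-tDR-007333-overexpressed cells (SD, n = 3 each). All 3 AS-tDR-007333 libraries lay within the range of the NC libraries, and the log2 difference was -0.01 (standard error 0.15). ATP5A1, for the alpha subunit that alternates with beta, had 15.3 ± 1.10 and 15.2 ± 2.54 FPKM in NC and AS-tDR-007333-overexpressed cells (SD, n = 3 each). ATP5C1, for the gamma subunit of the central shaft that the c ring turns, had 50.6 ± 1.98 and 51.3 ± 1.54 FPKM. Of the other F1 genes, ATP5E, for the epsilon subunit at the foot of the shaft, had the largest difference, 0.12 (standard error 0.08), and ATP5D, for the delta subunit beside it, had -0.03 (standard error 0.19). ATPIF1, whose product blocks ATP hydrolysis when the proton gradient fails, also had -0.03 (standard error 0.07).

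The 10 genes of the peripheral stalk, the other nuclear Fo subunits and coupling factor B had a median log2 difference of 0.09, and 9 of the 10 were positive. ATP5I, for the small membrane subunit e, had the smallest p of the 18 genes. Its FPKM was 44.3, 54.4 and 54.4 in NC replicates 1, 2 and 3, and 61.1, 57.8 and 52.8 in AS-tDR-007333 replicates 1, 2 and 3, a log2 difference of 0.17 (standard error 0.10, limma adjusted p = 1). NC replicate 1 lay apart from the other NC libraries, and AS-tDR-007333 replicate 3 lay among them. ATP5J2, for subunit f, had 0.20 (standard error 0.13), and C14orf2, for a small proteolipid bound to the enzyme, had 0.19 (standard error 0.11), both with a limma adjusted p of 1. ATP5F1, ATP5H and ATP5J, which encode subunits b, d and F6 of the peripheral stalk, had log2 differences of 0.08, 0.09 and 0.08. ATP5O, for the stalk subunit OSCP that grips the top of the F1 head, had 0.05, ATP5L, for subunit g, 0.12, USMG5, for a small membrane subunit, 0.07, and ATP5S, coupling factor B, -0.05.

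NC replicate 1 held the lowest of the 6 values for 9 of these 10 genes, while for ATP5G2 it held the highest. Without NC replicate 1, the median of the 10 genes was 0.00, with 5 of 10 positive, and the difference of ATP5G2 was -0.79. The mitochondrial genome supplies the other membrane subunits, a, which forms the proton channels beside the c ring, and 8. MT-ATP6, the gene of subunit a, had 727 ± 39.5 FPKM in NC cells and 720 ± 46.7 FPKM in AS-tDR-007333-overexpressed cells (SD, n = 3 each), with a log2 difference of -0.02 (standard error 0.06, limma adjusted p = 1). MT-ATP8 had 4288 ± 127 and 4166 ± 362 FPKM, a difference of -0.04 (standard error 0.06). MT-ATP8 overlaps MT-ATP6 by 46 bases in the deposited coordinates, so both may share reads.

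**Figure D3:**
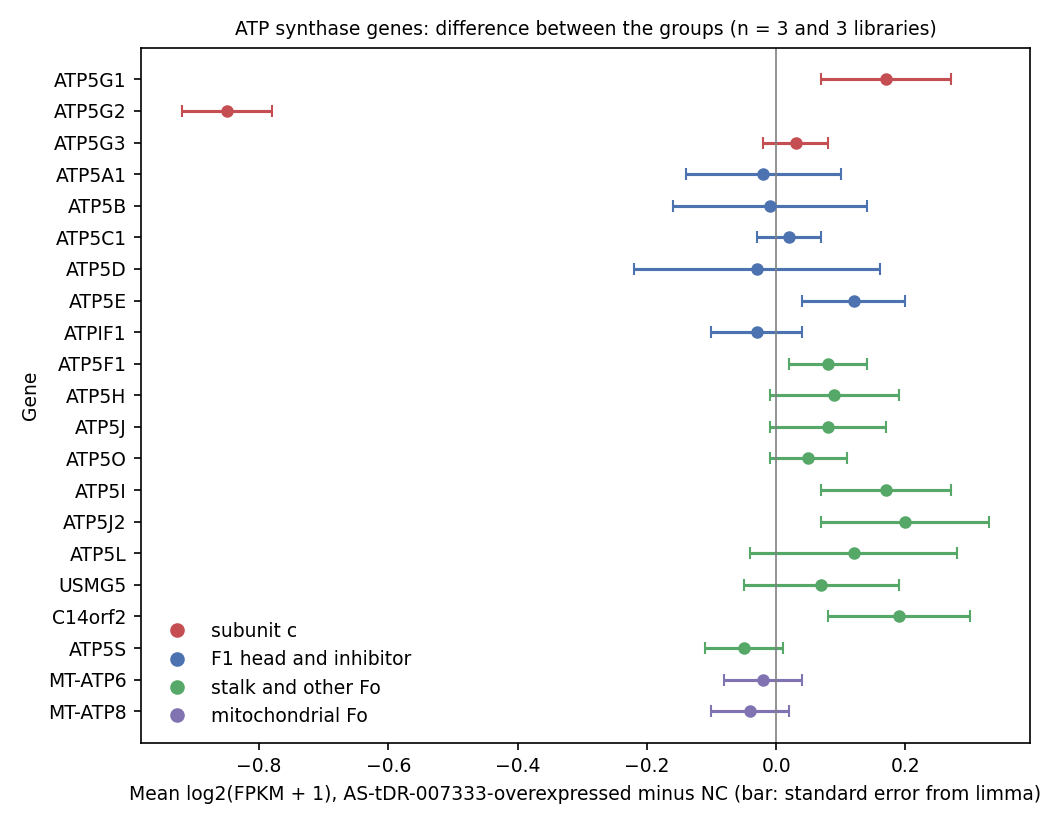
Difference in mean log2(FPKM + 1) between AS-tDR-007333-overexpressed and NC cells (x axis) for the 3 subunit c genes and the 18 other ATP synthase genes (y axis); points are estimates and bars standard errors from limma (3 libraries against 3). ATP5G2 lay at -0.85, and the 18 other genes lay between -0.05 and 0.20.

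The level of subunit c was also set against the other nuclear ATP synthase genes within each library. These include ATPIF1 and ATP5S, which encode an inhibitor and coupling factor B and are not counted as subunits. The median FPKM of the 16 nuclear genes was 20.5, 23.3 and 24.0 in NC replicates 1, 2 and 3, and 24.8, 23.1 and 24.3 in AS-tDR-007333 replicates 1, 2 and 3. NC replicate 1 had the lowest median. The subunit c sum was 2.12, 1.74 and 1.80 times this median in NC replicates 1, 2 and 3. In AS-tDR-007333 replicates 1, 2 and 3 it was 1.47, 1.56 and 1.45 times the median. These ratios did not overlap between the groups, but the sum contains ATP5G2, by which the family was chosen. Nothing is read from this for subunit c as a whole, since ATP5G1 and ATP5G3 together overlapped between the groups. ATP5G2 alone stood at 0.722 ± 0.115 and 0.354 ± 0.0123 times the median (SD, n = 3 each).

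The members lie on different chromosomes. On GRCh37, the deposited table places ATP5G1 (ENSG00000159199) on chromosome 17 from 46970127 to 46973233 on the plus strand. ATP5G2 (ENSG00000135390) lies on chromosome 12 from 54026510 to 54071192 on the minus strand, and ATP5G3 (ENSG00000154518) on chromosome 2 from 176040986 to 176049335 on the minus strand. No other listed gene overlapped any of them, and the nearest listed gene on either side was compared.

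Next to ATP5G2, ATF7, a transcription factor of the ATF and CREB family 6.32 kb away, had 5.94, 5.84 and 5.75 FPKM in NC replicates 1, 2 and 3, and 5.48, 6.57 and 6.58 FPKM in AS-tDR-007333 replicates 1, 2 and 3. This distance is counted from the last exon of 1 ATP5G2 transcript, described below, and the exons of all others lie 32094 bases farther off. CALCOCO1, a transcriptional coactivator and autophagy receptor 31.1 kb to the other side, had 12.4 ± 0.621 and 11.7 ± 0.201 FPKM (SD, n = 3 each). Their log2 differences were 0.07 and -0.07 (standard errors 0.08 and 0.06), and limma called neither of them (adjusted p = 1 for both). The nearest listed genes to ATP5G1 were CALCOCO2, an autophagy receptor 26.2 kb away, at -0.06, and UBE2Z, a ubiquitin-conjugating enzyme 12.5 kb away, at 0.03. For ATP5G3 they were ATF2, another transcription factor of the ATF and CREB family, at -0.05, and LNPK, which shapes junctions of the endoplasmic reticulum, at -0.01. ATF2 lies 7.88 kb from ATP5G3, but LNPK lies 739 kb from it and is no close neighbour. Each of these 4 genes had an adjusted p of 1 from limma.

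The span of ATP5G2 in the table, 44683 bases, was much longer than that of ATP5G1 (3107 bases) or ATP5G3 (8350 bases). It owes its length to 1 of 9 annotated transcripts, one with no coding sequence defined, whose last exon (chromosome 12 from 54026510 to 54026850) lies 32094 bases beyond the exons of all the others. RPL31P51, a processed pseudogene of the ribosomal protein gene RPL31, overlaps this exon on the same strand. Of the 341 bases of the exon, 322 aligned to the RPL31 transcript and 295 of these were identical (91.6%), with a longest identical stretch of 46 bases. RPL31 itself was listed at 42.8, 48.3 and 45.9 FPKM in NC replicates 1, 2 and 3, and at 52.9, 51.1 and 41.0 FPKM in AS-tDR-007333 replicates 1, 2 and 3. The groups overlapped, and the log2 difference was 0.07 (standard error 0.10, limma adjusted p = 1). The table gives 1 value per gene, so which transcripts of ATP5G2 carried the difference cannot be read from it, and whether reads from RPL31 entered the value was not tested.

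ATP5G3 is placed in the table with an end 2897 bases beyond the gene in GENCODE release 44, at the end of RPS15AP14, a processed pseudogene of RPS15A on the opposite strand. RPS15A had a log2 difference of 0.11 (standard error 0.06, limma adjusted p = 1). A miscellaneous RNA named Y_RNA (chromosome 2 from 176041227 to 176041318) also lies within the span of ATP5G3, on the same strand. Whether reads from it entered the value of ATP5G3 was not tested. ATP5G1 lies within the span of SUMO2P17, a pseudogene of SUMO2 on the opposite strand, and SUMO2 had a difference of -0.05 (standard error 0.06, limma adjusted p = 1).

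**Figure D4:**
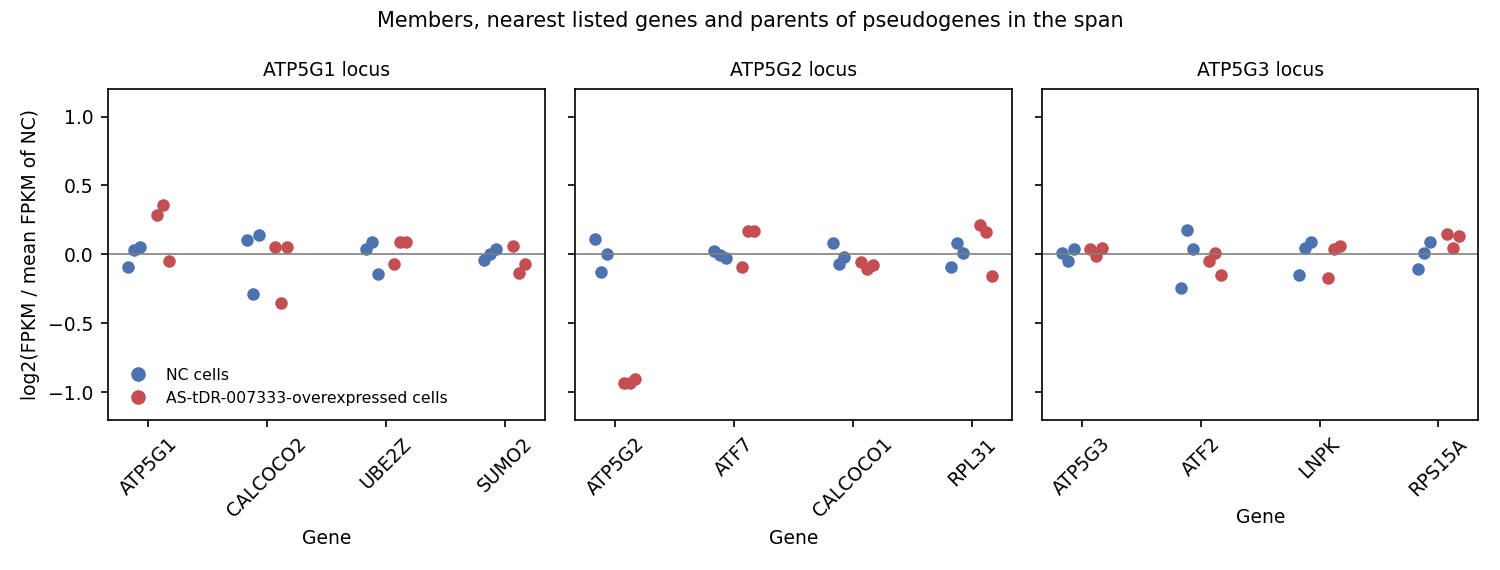
FPKM of each member, its nearest listed genes and the parent gene of the pseudogene that overlaps its span, as log2 of the ratio to the NC mean (y axis), in NC cells (blue) and AS-tDR-007333-overexpressed cells (red), 3 libraries each. In the ATP5G2 panel the groups lay apart for ATP5G2 and overlapped for its neighbours ATF7 and CALCOCO1, with differences in mean log2(FPKM + 1) of 0.07 and -0.07, and for RPL31, which lies on chromosome 2, with 0.07.

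A precursor of subunit c passes through the TOM and TIM23 channels into the matrix, where the processing peptidase removes the targeting peptide and a methyltransferase then modifies a lysine of the mature protein. Of 18 tested genes for these steps and for mitochondrial chaperones, limma called 0, with 0 at an unadjusted p under 0.05. Over all genes tested these shares were 0.0634% and 3.61%, so counts of 0 are unremarkable in a list this short. Their median log2 difference was 0.01. FAM173B, the gene of that methyltransferase, had the smallest p, with 7.53 ± 0.251 FPKM in NC cells and 6.53 ± 0.952 FPKM in AS-tDR-007333-overexpressed cells (SD, n = 3 each), a log2 difference of -0.19 (standard error 0.10, limma adjusted p = 1). HSPD1, the mitochondrial chaperonin, had 0.11, TOMM22, a receptor of the TOM complex, 0.12, and PMPCA, a subunit of the processing peptidase, -0.09, each with a limma adjusted p of 1.

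Assembly of the enzyme needs dedicated factors, and 5 of them were tested with 0 called by limma and 0 at an unadjusted p under 0.05. Such counts are unremarkable for 5 genes, with 0.0634% and 3.61% of all genes tested at these thresholds. TMEM242 and TMEM70, both needed to build the c ring, had log2 differences of -0.13 (standard error 0.06) and -0.12 (standard error 0.08). For TMEM242 the groups did not overlap, at 4.13 ± 0.183 and 3.70 ± 0.146 FPKM (SD, n = 3 each), where 5.18% of all genes tested were likewise lower without overlap. ATPAF2, a chaperone of the alpha subunit, had 0.12, and FMC1, a factor known from yeast to act in F1 assembly, had 0.15. The limma adjusted p was 1 for each.

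Subunit c is also known as the main protein stored in lysosomes in neuronal ceroid lipofuscinoses. Of 13 genes for its turnover or for these diseases, limma called 0, with 0 at an unadjusted p under 0.05. The shares over all genes tested were 0.0634% and 3.61%. The 13 genes had a median log2 difference of -0.02. CLN6, a membrane protein of the endoplasmic reticulum, had the smallest p at 1.90 ± 0.283 and 1.48 ± 0.515 FPKM in NC and AS-tDR-007333-overexpressed cells (SD, n = 3 each), with a log2 difference of -0.24 (limma adjusted p = 1). CTSF, a cathepsin, had -0.07, YME1L1, a protease of the inner membrane, -0.05, and SPG7, a subunit of the matrix-facing AAA protease, 0.05, each at a limma adjusted p of 1. TPP1, the lysosomal peptidase that degrades subunit c, was at 11.6 to 12.6 FPKM in NC cells and 11.5 to 12.3 FPKM in AS-tDR-007333-overexpressed cells.

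ADP, ATP and phosphate reach the enzyme through carriers and channels, and 8 such genes had a median log2 difference of 0.03. In limma 0 were called and 0 had an unadjusted p under 0.05, beside 0.0634% and 3.61% of all genes tested. SLC25A5, the most abundant of the ADP/ATP carriers here, had 237 ± 8.62 FPKM in NC cells and 247 ± 10.4 FPKM in AS-tDR-007333-overexpressed cells (SD, n = 3 each, log2 difference 0.06). The muscle-type carrier SLC25A4 had -0.12, the outer membrane channel VDAC1 0.11 and PPIF, the cyclophilin of the permeability transition pore, 0.05, with a limma adjusted p of 1 for each.

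Among 11 tested regulators of mitochondrial genes, limma called 0, and 1 had an unadjusted p under 0.05. Over all genes tested these shares were 0.0634% and 3.61%, so neither count is remarkable in a list this short. The gene under the unadjusted threshold was TFB1M, a methyltransferase of mitochondrial ribosomal RNA, at 2.98 ± 0.312 FPKM in NC cells and 2.48 ± 0.0965 FPKM in AS-tDR-007333-overexpressed cells (SD, n = 3 each), with a log2 difference of -0.19 (standard error 0.08, limma adjusted p = 1). GABPA, the DNA-binding subunit of a factor known to drive many respiratory chain genes, had 7.20 ± 0.670 and 6.25 ± 0.0732 FPKM, a difference of -0.17 (standard error 0.07, limma adjusted p = 1). The groups did not overlap for either gene, the AS-tDR-007333 libraries being lower, as they were for 5.18% of all genes tested. YY1, a zinc finger factor, had -0.08, and PPRC1, a coactivator, 0.10, both at a limma adjusted p of 1. The coactivators PPARGC1A and PPARGC1B were not listed.

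The genes whose values followed those of each member most closely over the 6 libraries were found by Pearson's r of log2(FPKM + 1), given here as a description of 6 points from the same libraries. For ATP5G2 these were PCED1B, a little-studied gene (r = 0.986), KIF3A, a kinesin motor (0.984), ZNF83, a zinc finger gene (0.983), RNF121, a RING finger protein (0.981), and SMARCA2, an ATPase of the SWI/SNF complex (0.978). ATP5G2 was chosen by its difference between the groups, so a high r to it largely restates that contrast. The likeness was in shape, not in size. PCED1B had 4.79 ± 0.435 FPKM in NC cells and 1.52 ± 0.285 FPKM in AS-tDR-007333-overexpressed cells (SD, n = 3 each), 0.317 times the NC level, while the ratios of the other 4 lay between 0.841 and 0.889 and that of ATP5G2 was 0.527. At least 0.95 was reached by 21 of the 11041 other genes for ATP5G2, 20 for ATP5G1 and 11 for ATP5G3. The closest to ATP5G1 were PARP14, an ADP-ribosyltransferase (r = 0.985), MT2A, a metallothionein (0.984), and C10orf35 (0.981). The closest to ATP5G3 were MGRN1, a ubiquitin ligase (r = 0.992), RPLP2, a protein of the ribosomal stalk (0.984), and HEMK1, a methyltransferase of mitochondrial release factors (0.980). No gene of the ATP synthase was among these 11.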

How the data were processed

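The members and gene lists were chosen with earlier results of these data known. RNA-seq libraries were analysed from 1 table deposited by the authors, which gives the FPKM of 12154 genes in 3 AS-tDR-007333 and 3 NC libraries. According to the study's methods, reads were mapped to GRCh37 with HISAT2 and Ballgown gave the FPKM. The tools named in the submitters' processing notes are featureCounts 1.5.0-p3 and HISAT2 2.0.5. In the deposited table the larger group mean of a gene was never under 0.500 FPKM. Because FPKM is relative to a library total, abundant genes can shift the others, and mitochondrial genes held 15.1 to 15.8% of the listed FPKM.

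Samples were grouped by their titles. Log2(FPKM + 1) was compared with limma 3.58.1 in R 4.3.3, using its moderated variances with a trend, in the 11042 genes whose mean reached 1 FPKM, with Benjamini-Hochberg adjustment over all of them. The difference of a member is the difference of mean log2(FPKM + 1), AS-tDR-007333 minus NC. No set test was run. The procedure was tested on simulated data. Values there varied independently between libraries, so a library lying apart, as NC replicate 1 did, was not imitated. Low values fell on no whole-read steps (2 of 2532 low genes at most shared 1 ratio between a pair of libraries), so no counts were recovered.

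Named were the members, their nearest listed genes, the ATP synthase genes, up to 4 genes with the smallest p of each other list, the histone H3.3 genes, and the genes with the highest r to each member. Another family of the same kind is not reported here. RPL31, RPS15A, SUMO2 and TPP1 were added after their values were seen. The annotation release behind the FPKM was not stated. Coding sequences came from GENCODE release 44 on GRCh37, pseudogene counts from RefSeq on GRCh38, and the fragment and control sequences from the study's list of oligonucleotides. Other settings tried were a filter at 5 FPKM or none, a pseudocount of 0.1, 2 rescalings, the ratio of means for the members, the replicate number as a block and leaving out each library. Figures were drawn with matplotlib 3.10.9.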

Additional observations from a re-analysis of the deposited data

How the results depend on the processing

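The difference of each member and of the sum moved by less than 1 SD between libraries under another pseudocount, both rescalings, the ratio of means and each left-out library. With a library left out, that of ATP5G2 ranged from -0.90 to -0.79, of ATP5G3 from 0.00 to 0.05, of ATP5G1 from 0.10 to 0.28 and of the sum from -0.26 to -0.21. The share of ATP5G2 was lower by 13.4 to 15.2 points. Over all genes, limma called 7, and 5 to 8 with another pseudocount, filter or scaling. The count was 1 without NC replicate 3, 14 without NC replicate 2, 18 without NC replicate 1 and 11 without AS-tDR-007333 replicate 2, and the cause was not tested. With the replicate number as a block it was 1, while the correlations of deviations between libraries of 1 number were -0.0134, 0.0106 and -0.0054, so the numbers do not show a pairing. In this balanced design the block cannot change a difference of means. ATP5G2 was called in 7 of the 12 alternatives, and was not called with the block or without NC replicate 3 or any 1 of the 3 AS-tDR-007333 libraries. Of the 18 other ATP synthase genes, limma called 0 in all 12 alternatives for that count (17 of them could be tested with the filter at 5 FPKM), with 0 at an unadjusted p under 0.05, and their smallest adjusted p ranged from 0.746 (without NC replicate 1) to 1. In the fit given above, 0.0634% of all genes tested were called and 3.61% had an unadjusted p under 0.05. Counts of 0 are therefore unremarkable for 18 genes. The unknown depth limits what can be said of the low genes, and 1 value per gene hides the transcripts.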
